A study of Mus musculus with 2 samples.

Results

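Peaks of 5-hydroxymethylcytosine (5hmC) on long noncoding RNA (lncRNA) genes were the 7320 autosomal peaks that overlapped a gene of type lncRNA by at least 1 bp and touched no protein-coding gene span. They were drawn from 108395 peaks of 1 library, 106034 of them on autosomes, and made up 6.90% of the autosomal peaks. The rule leaves out 6 genes, Malat1, Neat1, H19, Meg3, Rian and Mirg, which removed 20 peaks. Gene types and spans were those of the RefSeq annotation of GRCm38.p6, the build that mm10 names. The list held DNA peaks and no RNA values, so neither transcription of these genes nor the identity of the cells could be checked against expression markers.

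The study profiled wild-type (WT) prospermatogonia, the fetal germ cells of the testis, at E17.5 of embryonic development. The 1 library used here was enriched by 5hmC-Seal, in which 5hmC is tagged with a modified glucose and biotin and pulled down on streptavidin. The other library was the same tagged DNA before the pull-down and was not analysed here. Both belonged to batch 1 and came from 50 ng of DNA of 30000 cells pooled over several embryos. A pool shows neither differences between embryos nor, for a weak peak, whether few or many cells carried the mark. With 1 library and no replicate there was no test across samples, and depth was unknown. Each fold enrichment is the peak caller's ratio of captured signal to its background, as the authors deposited it. Intervals are exact 95% Clopper-Pearson intervals for shares and exact Poisson intervals for densities, and they cover counting error only. Peaks close together share their DNA fragments and genes overlap, so such counts are not independent.

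5hmC forms when TET enzymes oxidise 5-methylcytosine, and it can be kept as a mark or lead on to loss of methylation. It needs methylated CpG sites, so CpG-dense promoters that stay free of methylation usually carry little of it. LncRNA genes are transcribed like messenger RNA genes but encode no long protein. Many lie beside developmental regulators or in imprinted clusters, many host small RNAs in their introns, and many have starts that derive from repeated sequence. Prospermatogonia at this stage are regaining DNA methylation over most of the genome, including over repeats.

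Sequences around lncRNA starts carried the clearest pattern in these peaks and are shown here. Each is the RefSeq window of 300 bases, from 250 before to 50 after the annotated gene start, on GRCm38.p6 and in the direction of transcription. The windows came from lncRNA genes that overlap no protein-coding span. They were joined into a family when blastn found at least 80% identity over at least 100 bases on the same strand. The first 3 windows belong to 1 family of 19 windows (family 6 by size). Gm41318 and Gm30786 were under peaks of fold 7.44 and 6.67, and 1700066C05Rik was under none. CpG sites are in capitals, 14 in Gm41318, 15 in Gm30786 and 8 in 1700066C05Rik.
Gm41318, chr15:49194392-49194691, strand +: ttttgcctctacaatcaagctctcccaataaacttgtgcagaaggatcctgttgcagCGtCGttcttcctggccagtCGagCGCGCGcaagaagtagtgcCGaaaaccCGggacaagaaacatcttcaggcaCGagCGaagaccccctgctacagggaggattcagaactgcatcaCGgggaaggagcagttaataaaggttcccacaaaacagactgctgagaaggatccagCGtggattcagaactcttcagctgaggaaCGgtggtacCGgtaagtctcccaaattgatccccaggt
Gm30786, chr11:65660312-65660611, strand -: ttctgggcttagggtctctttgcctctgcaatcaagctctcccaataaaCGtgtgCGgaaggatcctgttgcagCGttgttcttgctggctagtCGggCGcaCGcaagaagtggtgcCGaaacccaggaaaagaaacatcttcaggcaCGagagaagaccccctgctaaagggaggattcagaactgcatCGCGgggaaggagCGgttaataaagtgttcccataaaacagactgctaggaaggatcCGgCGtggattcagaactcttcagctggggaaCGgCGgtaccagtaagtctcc
1700066C05Rik, chr16:79999126-79999425, strand +: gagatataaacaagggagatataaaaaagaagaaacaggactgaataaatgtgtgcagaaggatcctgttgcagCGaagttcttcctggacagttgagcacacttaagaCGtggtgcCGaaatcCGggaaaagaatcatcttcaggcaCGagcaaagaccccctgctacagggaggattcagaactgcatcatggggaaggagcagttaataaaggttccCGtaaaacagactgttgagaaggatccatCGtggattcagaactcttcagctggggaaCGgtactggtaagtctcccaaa

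Gm41318 and Gm30786 were 91.5% identical over 283 bases, although they lie on different chromosomes. Gm41318 and the untouched 1700066C05Rik were 89.7% identical over 261 bases. The next pair, with 4 and 7 CpG sites, belongs to a family of 14 windows (family 9). Gm35360 had the highest fold of that family, 7.83, and Gm46262, 91.8% identical to it over 280 bases, had 5.63.
Gm35360, chr14:47813985-47814284, strand +: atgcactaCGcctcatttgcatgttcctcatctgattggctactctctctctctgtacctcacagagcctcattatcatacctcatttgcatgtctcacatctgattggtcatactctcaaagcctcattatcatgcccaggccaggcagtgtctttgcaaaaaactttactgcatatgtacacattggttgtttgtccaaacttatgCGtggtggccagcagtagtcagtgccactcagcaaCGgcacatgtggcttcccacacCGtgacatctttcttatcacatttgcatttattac
Gm46262, chr11:71970470-71970769, strand -: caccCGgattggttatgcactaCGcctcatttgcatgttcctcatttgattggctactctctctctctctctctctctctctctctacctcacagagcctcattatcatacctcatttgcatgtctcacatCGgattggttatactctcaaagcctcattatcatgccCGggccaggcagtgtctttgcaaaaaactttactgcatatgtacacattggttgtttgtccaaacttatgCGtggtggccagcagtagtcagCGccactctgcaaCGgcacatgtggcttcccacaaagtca

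The last pair belongs to another family of 14 windows (family 10), with 15 CpG sites in each window shown. Gm41479 had a fold of 9.20, the highest of the 3 families, and Gm40518 had 7.20. They were 85.1% identical over 289 bases. Repeats are not annotated in the gene table, and no repeat name was given to any family.
Gm41479, chr16:80294655-80294954, strand +: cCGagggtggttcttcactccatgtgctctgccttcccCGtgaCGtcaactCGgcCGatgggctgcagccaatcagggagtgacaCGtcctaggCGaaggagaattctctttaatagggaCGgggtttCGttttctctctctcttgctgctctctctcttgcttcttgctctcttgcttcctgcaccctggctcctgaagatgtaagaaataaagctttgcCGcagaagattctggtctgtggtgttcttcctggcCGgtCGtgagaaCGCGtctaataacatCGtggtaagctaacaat
Gm40518, chr9:48158699-48158998, strand -: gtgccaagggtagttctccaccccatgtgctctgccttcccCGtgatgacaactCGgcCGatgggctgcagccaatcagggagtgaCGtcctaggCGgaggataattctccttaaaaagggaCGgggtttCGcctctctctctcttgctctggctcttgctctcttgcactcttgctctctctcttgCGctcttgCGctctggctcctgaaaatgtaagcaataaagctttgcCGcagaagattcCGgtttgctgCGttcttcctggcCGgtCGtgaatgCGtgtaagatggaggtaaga

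Peaks on lncRNA genes were mostly weak and narrow, with a minority of strong ones. Their median fold was 3.29 (95% interval of the median 3.28 to 3.31), with quartiles of 2.97 and 3.95 and a maximum of 11.9. The 57235 peaks on protein-coding genes had a median fold of 3.24 (3.23 to 3.24). The 1578 peaks on pseudogenes alone had 3.76 (3.68 to 3.84), and the 39535 peaks outside every gene had 3.60 (3.59 to 3.62). Median width was 622 bp on lncRNA genes, against 660 bp on protein-coding genes, 757 bp on pseudogenes alone and 610 bp outside genes. Together the peaks on lncRNA genes covered 6.28 Mb.

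The strong minority separated lncRNA genes from protein-coding genes more than the medians did. A −log10 q of 5 or more was reached by 910 peaks on lncRNA genes, 12.4% (11.7 to 13.2), against 11.9% of all autosomal peaks. The share was 4.81% (4.64 to 4.99) on protein-coding genes, 22.9% (20.8 to 25.0) on pseudogenes alone and 21.6% (21.2 to 22) outside genes. A fold of 6 or more was reached by 7.19% of peaks on lncRNA genes and 2.53% of those on protein-coding genes. Counted by midpoint, lncRNA-only sequence had 40.5 peaks per Mb (39.6 to 41.5), with peaks that touch a protein-coding span left out. For the other classes all autosomal peaks were counted. Protein-coding sequence had 57.7 per Mb (57.2 to 58.2), pseudogene-only sequence 56.1 (53.1 to 59.3) and sequence outside genes 33.5 (33.1 to 33.8). Among the peaks with −log10 q of 5 or more the order differed, with 4.79 per Mb in lncRNA-only sequence and 2.75 in protein-coding sequence. Peaks on lncRNA genes thus lay between those on protein-coding genes and those outside genes by share of strong peaks, by median fold and by both densities.

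**Figure D1:**
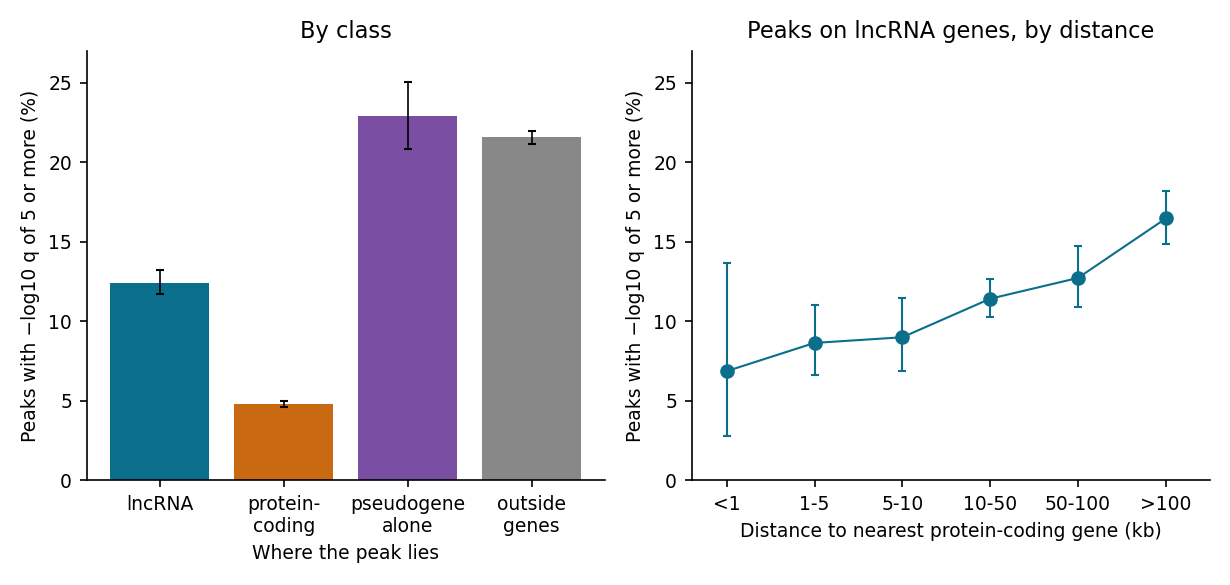
Share of peaks with −log10 q of 5 or more (percent, bars and points) with exact 95% binomial intervals (error bars), on the left by where the peak lies and on the right for peaks on lncRNA genes by distance to the nearest protein-coding gene span. The lncRNA bar stands at 12.4%, above protein-coding genes at 4.81% and below the other classes, and on the right the share runs from 6.86% to 16.5%.

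Strong peaks were more common where the peak lay far from protein-coding genes. The median distance of a peak on a lncRNA gene to the nearest protein-coding span was 39.3 kb. Within 1 kb, 7 of 102 peaks were strong by the same threshold, 6.86% (2.80 to 13.6). The share was 8.64% at 1 to 5 kb, 8.99% at 5 to 10 kb, 11.4% at 10 to 50 kb and 12.7% at 50 to 100 kb. Beyond 100 kb it was 16.5% (14.8 to 18.2), 316 of 1920 peaks. Median fold moved little over the same classes, with 3.19 within 1 kb and 3.38 beyond 100 kb.

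The peaks were spread thinly over many genes. At least 1 of them lay on 4026 of 12318 autosomal lncRNA genes, 32.7%. Of these genes, 2310 had 1 peak, 1478 had 2 to 4, 205 had 5 to 9 and 33 had 10 or more. A peak lay wholly inside the span of 1 lncRNA gene in 6481 cases, and 374 peaks touched 2 or more lncRNA genes. Among the 7854 lncRNA genes that overlap no protein-coding span, 3434 were touched, 43.7% (42.6 to 44.8), against 45.2% of all autosomal genes of every type. Genes of 2 kb or more that held a peak had a median of 6.02% of their span covered.

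The share rose with gene length. LncRNA genes of 50 kb or more held a peak in 80.1% of cases (76.7 to 83.2), and those under 2 kb in 17.8% (15.3 to 20.5). Protein-coding genes held one in 92.3% (91.5 to 93.0) at 50 kb or more and in 7.42% (6.37 to 8.57) under 2 kb. LncRNA genes were below protein-coding genes in every class from 2 kb upwards, for instance 38.6% against 54.2% at 5 to 10 kb. Under 2 kb the order was the other way round. Pseudogenes under 2 kb were at 14.8% (13.8 to 15.8). Median lengths under 2 kb were 1301 bp for lncRNA genes, 954 bp for protein-coding genes and 778 bp for pseudogenes. The part of length within this class was not tested.

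**Figure D2:**
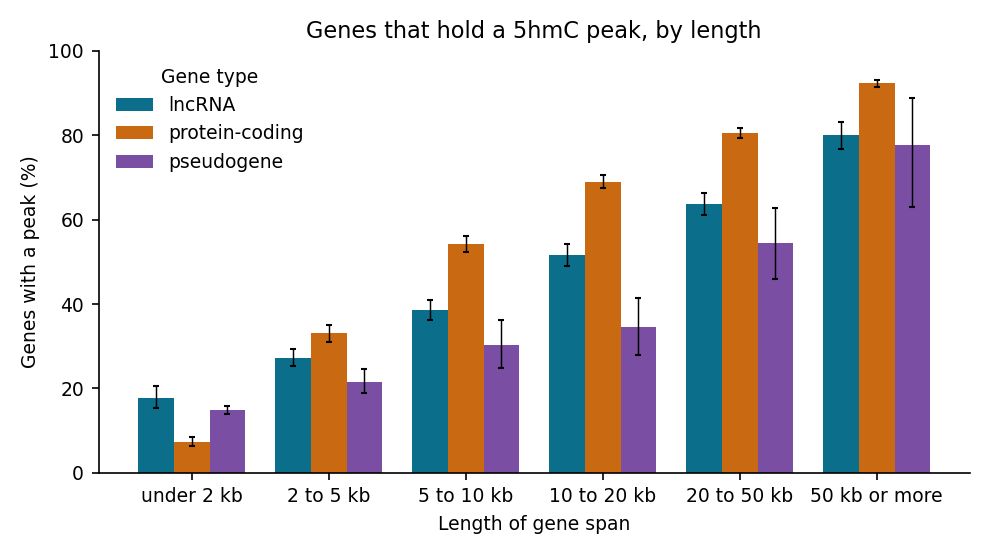
Percent of autosomal genes that hold a peak, by length of the gene span, for lncRNA genes clear of protein-coding spans, protein-coding genes and pseudogenes, with exact 95% binomial intervals. Bars rise with length in each type; lncRNA genes stand at 17.8% under 2 kb, above protein-coding genes at 7.42%, and at 80.1% at 50 kb or more, below protein-coding genes at 92.3%.

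Gene starts set lncRNA genes apart from protein-coding genes. Start windows were taken only for lncRNA genes clear of protein-coding spans, while protein-coding genes had no such limit. A peak touched the start window of 513 of 5979 such lncRNA genes, 8.58% (7.88 to 9.32), and of 573 of 16457 protein-coding genes, 3.48% (3.21 to 3.77). The share over both gene types was 4.84%. Of the 513 touching peaks, 435 also lay on a lncRNA gene and off protein-coding spans. The other peaks touched only the upstream bases or a protein-coding span as well. With −log10 q of 5 or more, 1.04% (0.796 to 1.33) of lncRNA start windows were touched and 0.201% (0.138 to 0.281) of protein-coding ones. In bins of 500 bp, lncRNA genes had a peak in 9.58% (8.85 to 10.4) just before the start and 9.87% (9.12 to 10.7) just after it. Protein-coding genes had 3.55% (3.27 to 3.84) before and 4.44% (4.13 to 4.77) after the start. From 2.5 to 3 kb inside the gene the values were 8.11% for lncRNA genes and 12.4% for protein-coding genes. The dip over starts of protein-coding genes had no counterpart at lncRNA starts, where both bins stood above every other bin within 10 kb.

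**Figure D3:**
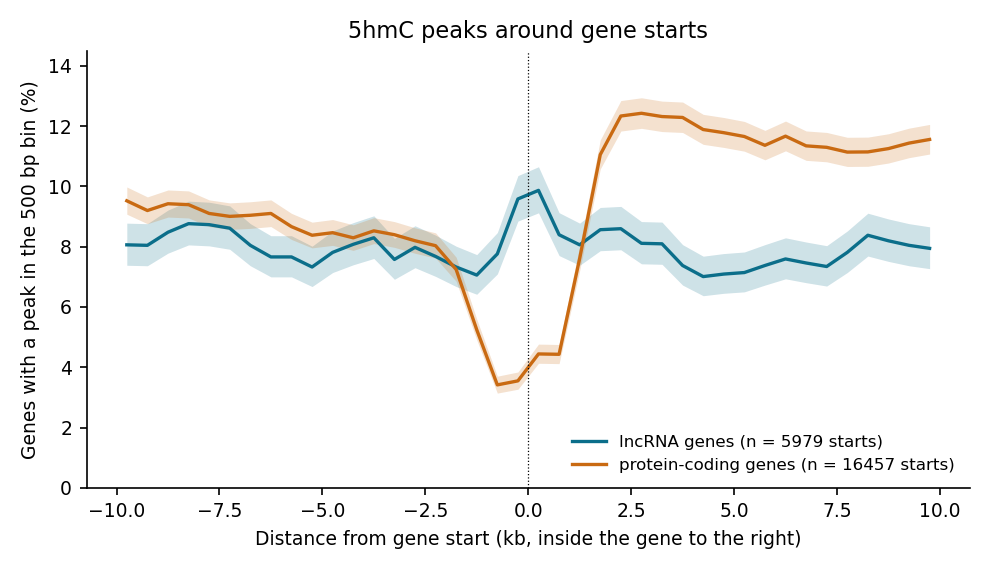
Percent of genes with a peak in each 500 bp bin (lines), from 10 kb before to 10 kb after the annotated start. Shading gives exact 95% binomial intervals. Shown are 5979 lncRNA genes clear of protein-coding spans and 16457 protein-coding genes. The lncRNA line peaks at 9.87% just after the start, and the protein-coding line falls to 3.42% upstream of it and reaches 12.4% inside the gene.

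CpG content differed between the gene types and moved with these shares. The median start window held 4 CpG sites in lncRNA genes and 14 in protein-coding genes. Windows were called CpG-rich at a GC content of 50% or more and an observed-to-expected CpG ratio of 0.6 or more, which 8.80% of lncRNA and 47.3% of protein-coding windows met. Within CpG-rich windows a peak touched 32 of 526 lncRNA starts, 6.08% (4.20 to 8.48), and 39 of 7777 protein-coding starts, 0.501% (0.357 to 0.685). Within the other windows the shares were 8.82% (8.08 to 9.60) for lncRNA and 6.15% (5.66 to 6.68) for protein-coding genes. At 3 to 5 CpG sites the types were level, at 9.01% each. At 10 to 19 sites 18% (14.6 to 21.8) of lncRNA windows were touched and 2.14% (1.69 to 2.68) of protein-coding ones. At 20 or more sites both were low, with 0.787% for lncRNA and 0.374% for protein-coding windows. The separation at starts was thus widest at intermediate CpG number.

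Strong peaks touched a larger share of lncRNA starts in sequence families than of those with no alike start. The grouping was made after peaks at starts had been seen, from sequence alone, and gave 33 families of 5 or more windows with 448 lncRNA starts. A peak touched 15.0% (11.8 to 18.6) of these and 8.08% (7.36 to 8.84) of the 5335 lncRNA starts with no alike window. Of the 67 touched windows in families, 39 lay in the 3 families of the sequences above, which hold only 47 of the 448 windows. The higher share in families thus came largely from these 3. With −log10 q of 5 or more the shares were 7.14% (4.94 to 9.93) in families and 0.450% (0.288 to 0.669) without an alike window. Windows of 1 family are alike in sequence and so not independent. The intervals for families count each window as independent and do not allow for that. Protein-coding starts in families of 5 or more were touched in 0.890% of cases (0.385 to 1.75). Of the 62 lncRNA start windows with so strong a peak, 24 had no alike window and 6 were in families of 2 to 4. The other 32 were in families of 5 or more, and 23 of those were in the same 3 families.

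In these 3 families a peak touched 39 of 47 windows, and 28 windows lay wholly under one. Of the touching peaks, 36 were among the peaks on lncRNA genes as defined here. Those at Gm38514, Gm35454 and Gm42279, all in the family of Gm35360, were not. The 3 families were picked because large shares of their windows were touched. Their shares are therefore high by choice, and the intervals do not allow for that choice. The family of Gm41318 had 16 of 19 touched, 84.2% (60.4 to 96.6), on 11 chromosomes counting all its windows. Its touching peaks had folds from 3.996 to 7.44, with a median of 6.11, and 12 had −log10 q of 5 or more. Beside Gm41318 the highest were 2310047D07Rik at 7.02 and Gm15389 at 6.8, and Gm32455, 1700066C05Rik and C330011F03Rik had no peak. The family of Gm41479 had 12 of 14 touched, 85.7% (57.2 to 98.2), with folds from 3.18 to 9.20, and Gm14066 and AA388235 had none. The family of Gm35360 had 11 of 14 touched, 78.6% (49.2 to 95.3), with folds from 3.58 to 7.83.

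Other families of alike windows had few peaks or none. The largest, with 72 windows including that of Platr5, had 3 touched, and the next, with 57 windows, had 4. In 18 of the 33 families, with 165 windows, no window was touched. Of the 13 families with 10 or more windows, 6 with 90 windows in all had none. Among smaller families 2 stood high, that of Gm46490 with 4 of 7 windows touched, up to a fold of 11.5, and that of Gm41007 with 4 of 5. These families had more CpG sites than the largest ones. The median number was 8 in the family of Gm41318, 13 in that of Gm41479, 4.5 in that of Gm35360 and 16 in that of Gm46490, against 1 and 2 in the families of 72 and 57 windows. A family of 9 windows with a median of 12 had 2 touched. The part of CpG number in the difference between families was not tested. Nor was the part of reads that map to several places, whose handling is not given in the sources used here. Median identity of matched pairs was 87.4%, 84.6% and 87.0% in the families of Gm41318, Gm41479 and Gm35360. A family of 5 windows with a median identity of 100% had no peak, and neither did one of 7 windows at 99.3%.

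**Figure D4:**
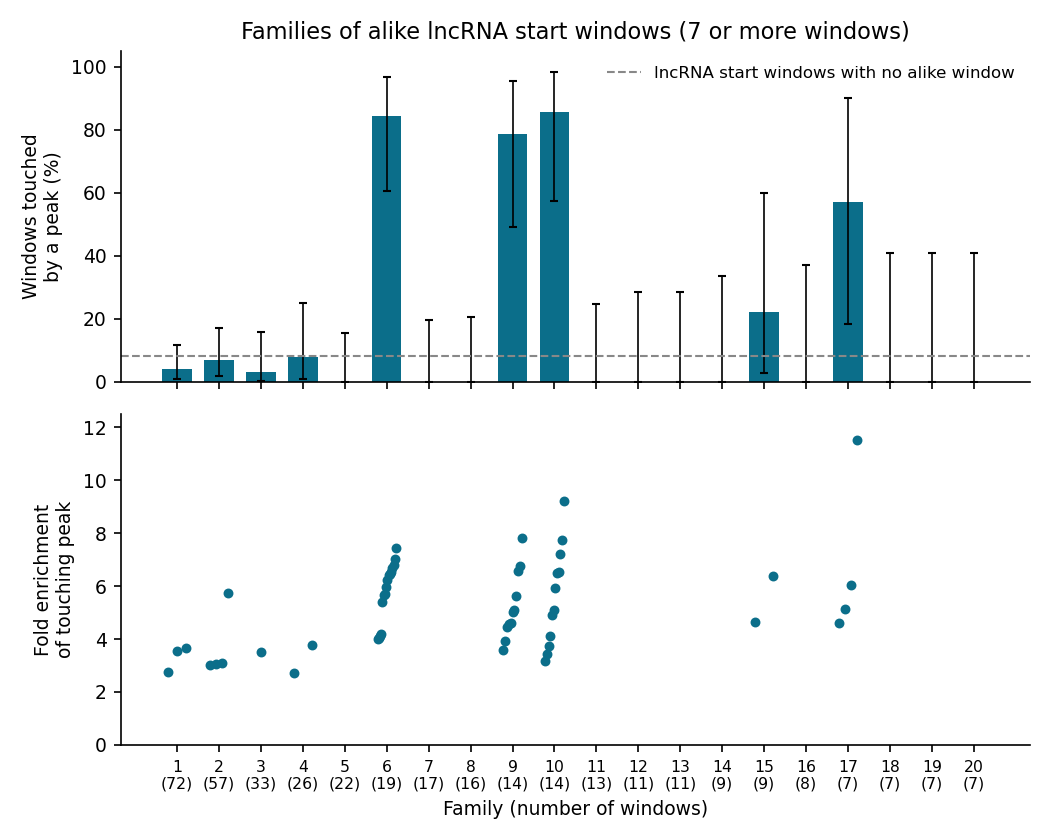
Families of 7 or more alike lncRNA start windows in order of size, with the percent of windows touched by a peak and its exact 95% binomial interval (upper panel, dashed line at the 8.08% of windows with no alike window) and the fold enrichment of each touching peak (lower panel, 1 point per window). Families 6, 9 and 10 stand at 84.2%, 78.6% and 85.7%, with folds up to 9.20, and most other families stand at or near 0%.

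Among microRNA hairpins in the RefSeq table, 10 lay both inside the span of a lncRNA gene and under a peak on that gene. They lay in 6 genes and under 7 peaks. Hairpins in lncRNA genes without a peak were not counted, so these are examples and give no share. A further hairpin, Mir3089, lay outside the span of Gm39782, and the peak on that gene reached 11 of its 84 bases. Their mature RNAs are printed because the precursor DNA itself was under the mark. The seed, bases 2 to 8, is in capitals. Mirc35hg hosts miR-183, miR-96 and miR-182, a cluster known from sensory cells. Lncppara hosts let-7c-2 and let-7b of the let-7 family, which restrains growth and stem cell genes. Gm16201 hosts miR-202, known for its expression in gonads, and Gm51876 overlaps miR-196a-1, which lies among Hoxb genes.
mmu-miR-183-5p: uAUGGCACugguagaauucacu
mmu-miR-96-5p: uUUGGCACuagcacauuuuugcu
mmu-miR-182-5p: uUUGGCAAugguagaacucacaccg
mmu-let-7c-5p: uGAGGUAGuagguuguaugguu
mmu-let-7b-5p: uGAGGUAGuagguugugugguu
mmu-miR-202-5p: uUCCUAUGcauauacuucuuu
mmu-miR-202-3p: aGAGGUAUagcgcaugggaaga
mmu-miR-196a-5p: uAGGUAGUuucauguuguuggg

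The 2 let-7 RNAs share the seed GAGGUAG. The seeds of miR-96 and miR-182 are UUGGCAC and UUGGCAA. Mirc35hg was among the most covered host genes, with 43.9% of its span under 3 peaks. The widest, 4997 bp at a fold of 4.16, covered the whole Mir96 and Mir183 hairpins, and one of 735 bp at 3.29 covered 70 of the 75 bases of Mir182. The peak on Lncppara had a fold of 3.21 and held the whole Mirlet7c-2 hairpin and 33 of 85 bases of Mirlet7b. The peak on Gm16201 had 3.69 and held the whole Mir202 and Mir7686 hairpins. The peak on Mir196a-1 was 269 bp wide with a fold of 3.44 and covered 49 of its 102 bases. Mir670 in Mir670hg and Mir3069 in Snhg10 lay under peaks of 3.01 and 3.23, and the peak that reached Mir3089 had 3.09. None of these peaks had a −log10 q of 5 or more.

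Small RNA host genes as a list held a peak in 14 of 34 cases, 41.2% (24.6 to 59.3), against 32.7% of all lncRNA genes, a share inside that interval. Of the 28 clear of protein-coding spans, 12 held a peak, against 43.7% of all such lncRNA genes. The listed genes had a median length of 4117 bp, against 8420.5 bp over all lncRNA genes. Their 37 peaks had a median fold of 3.29, as over all peaks on lncRNA genes, but 15 of them lay on Snhg14. The other 22 had a median of 3.19, and 1 of them reached −log10 q of 5. Besides Snhg14, described with the imprinted clusters, the highest was Mir99ahg, host of miR-99a and let-7c-1, with a single peak of 8.18 in a span of 229.1 kb. Mir9-3hg had 4 peaks from 3.35 to 4.29, Mir100hg had 3 up to 3.73, and Dleu2 had 2 up to 3.30. Dleu2 was touched by 3 when peaks that also lie on protein-coding spans were counted. Snhg10 had 1 peak over 40.9% of its span. Snhg17, Snhg11, Snhg3, Snhg16, Snhg4 and Mir1a-1hg had 1 peak each, from 2.77 to 3.19, and Mir670hg had 2. Mir17hg, which hosts the miR-17 to miR-92 cluster, Gas5 and 18 others had none.

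Imprinted cluster lncRNAs had few genes but strong peaks. A peak lay on 4 of 7, 57.1% (18.4 to 90.1), against 32.7% of all lncRNA genes, a share inside that interval. Of the 2 clear of protein-coding spans, 1 held a peak, against 43.7% of all such lncRNA genes. Their 18 peaks had a median fold of 5.16, against 3.29 over all peaks on lncRNA genes. Snhg14, the long host of small nucleolar RNAs in the cluster of Ube3a, had 15 peaks with a median of 5.78, and 8 reached −log10 q of 5. In the order of the chromosome their folds were 4.54, 6.32, 6.95, 2.91, 6.27, 6.10, 2.76, 6.92, 2.77, 3.21, 6.49, 6.98, 3.64, 3.02 and 5.78. High and low peaks were interspersed along the gene, and together these 15 covered 1.26% of its 1177.4 kb. Snhg14 was touched by 24 peaks when those that also lie on protein-coding spans were counted. Ipw lies inside Snhg14 and shares 2 of the 15 peaks, 6.92 and 2.77, so the list's values largely describe 1 locus. Igf2os, transcribed opposite Igf2, had 1 peak of 8.91 over 27% of its span. Airn, which runs through Igf2r and silences it in cis, had 2 weak peaks of 2.89 and 3.06. With peaks that also lie on protein-coding spans counted, 6 touched Airn. Kcnq1ot1 and Peg13 were touched only by peaks that also lie on protein-coding spans, 6 and 1 of them, and Nctc1 by none.

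LncRNA genes beside developmental transcription factor genes held a peak in 18 of 31 cases, 58.1% (39.1 to 75.5), against 32.7% of all lncRNA genes. Of the 14 clear of protein-coding spans, 8 held a peak, against 43.7% of all such lncRNA genes. The listed genes were also longer, with a median of 13995 bp against 8420.5 bp, and the part of length was not tested. Their 55 peaks had a median fold of 3.26, and 1 reached −log10 q of 5, against 12.4% of all peaks on lncRNA genes. That one lay on Pax6os1, beside the eye and brain regulator Pax6, with a fold of 8.42 at 98.8 kb from Pax6, and the gene's 6 other peaks ran from 2.97 to 4.23. Sox2ot, which contains Sox2, had 8 peaks from 2.86 to 4.20, of which the nearest lay 3.49 kb from Sox2. Fendrr, beside the mesoderm gene Foxf1, had 5 peaks from 2.76 to 4.20 over 19.997% of its span. Lhx1os had 2, at 4.98 and 3.67, both within 10 kb of Lhx1. Sox1ot had 4, Nkx2-2os 6, Otx2os1 5 and Wt1os 5, with highest folds of 4.40, 4.43, 3.60 and 3.26. Dlx6os1 and Dlx4os had 2 each, and Six3os1, Halr1, Hoxb5os, Prdm16os, Vax2os and Evx1os 1 each, from 2.74 to 3.79. With peaks that also lie on protein-coding spans counted, 7 touched Nkx2-2os and 4 touched Hoxb5os.

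Within the Hox clusters, Hotair, which lies in the Hoxc cluster, had 1 peak of 3.72. Hottip, at the Hoxa13 end of the Hoxa cluster, had 2, at 3.39 and 3.67. The first of these covered the whole start window of Hottip, which holds 6 CpG sites, printed here as a start of a named gene that lay under a peak. Hotairm1, Hoxa11os, Hoxaas2, Hoxaas3, Hoxb3os, Hoxd3os1 and Haglr had none.
Hottip, chr6:52262525-52262824, strand +: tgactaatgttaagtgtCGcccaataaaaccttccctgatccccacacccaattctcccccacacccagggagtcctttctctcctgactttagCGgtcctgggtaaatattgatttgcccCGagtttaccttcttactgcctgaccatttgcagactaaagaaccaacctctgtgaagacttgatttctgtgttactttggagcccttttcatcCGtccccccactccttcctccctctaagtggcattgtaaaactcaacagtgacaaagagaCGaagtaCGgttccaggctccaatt

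Pluripotency-associated lncRNAs, most of them named Platr from expression in embryonic stem cells, held a peak in 10 of 19 cases, 52.6% (28.9 to 75.6), against 32.7% of all lncRNA genes, a share inside that interval. Of the 18 clear of protein-coding spans, 10 held a peak, against 43.7% of all such lncRNA genes. The listed genes had a median length of 10924 bp. Their 32 peaks had a median fold of 2.98 and a maximum of 4.12, and 0 reached −log10 q of 5, against 12.4% of all peaks on lncRNA genes. Tunar, which acts in stem cells and neural differentiation, had 8 peaks from 2.77 to 4.09. Platr6 had 6, Lncenc1, a marker of the naive state, had 5, and Platr11 had 4. Platr22 had 3 up to 4.12, Platr20 had 2, and Platr5, Platr4, Platr26 and Platr27 had 1 each.

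LncRNAs with a named role held a peak in 10 of 18 cases, 55.6% (30.8 to 78.5), against 32.7% of all lncRNA genes, a share inside that interval. Of the 14 clear of protein-coding spans, 10 held a peak, against 43.7% of all such lncRNA genes. The listed genes had a median length of 9651 bp, and their 65 peaks had a median fold of 3.19. Lncpint, a p53-induced transcript, had 26 peaks, as many as any lncRNA gene, all between 2.75 and 3.96, and they covered 20.1% of its 124.9 kb. Pvt1, beside Myc, had 11 peaks up to 4.41 in 222.2 kb. Morrbid, beside Bcl2l11 and known from myeloid cells, had 10 up to 4.63, one of which, at 3.54, covered its whole start window with 8 CpG sites. Trp53cor1 (lincRNA-p21), beside Cdkn1a, had 5 peaks from 2.76 to 3.88 over 25.2% of its span. Tug1, required for male fertility in mice, had 1 narrow peak of 296 bp with a fold of 5.98, the only one of this list with −log10 q of 5 or more. Gm38509 had 3 peaks over 29.0% of its span, Crnde 4, Miat 2, Carmn 2 and Bvht 1. Norad, Chaserr, Oip5os1 and Dnm3os had none, and Mhrt had only 1 shared with a protein-coding span.

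**Figure D5:**
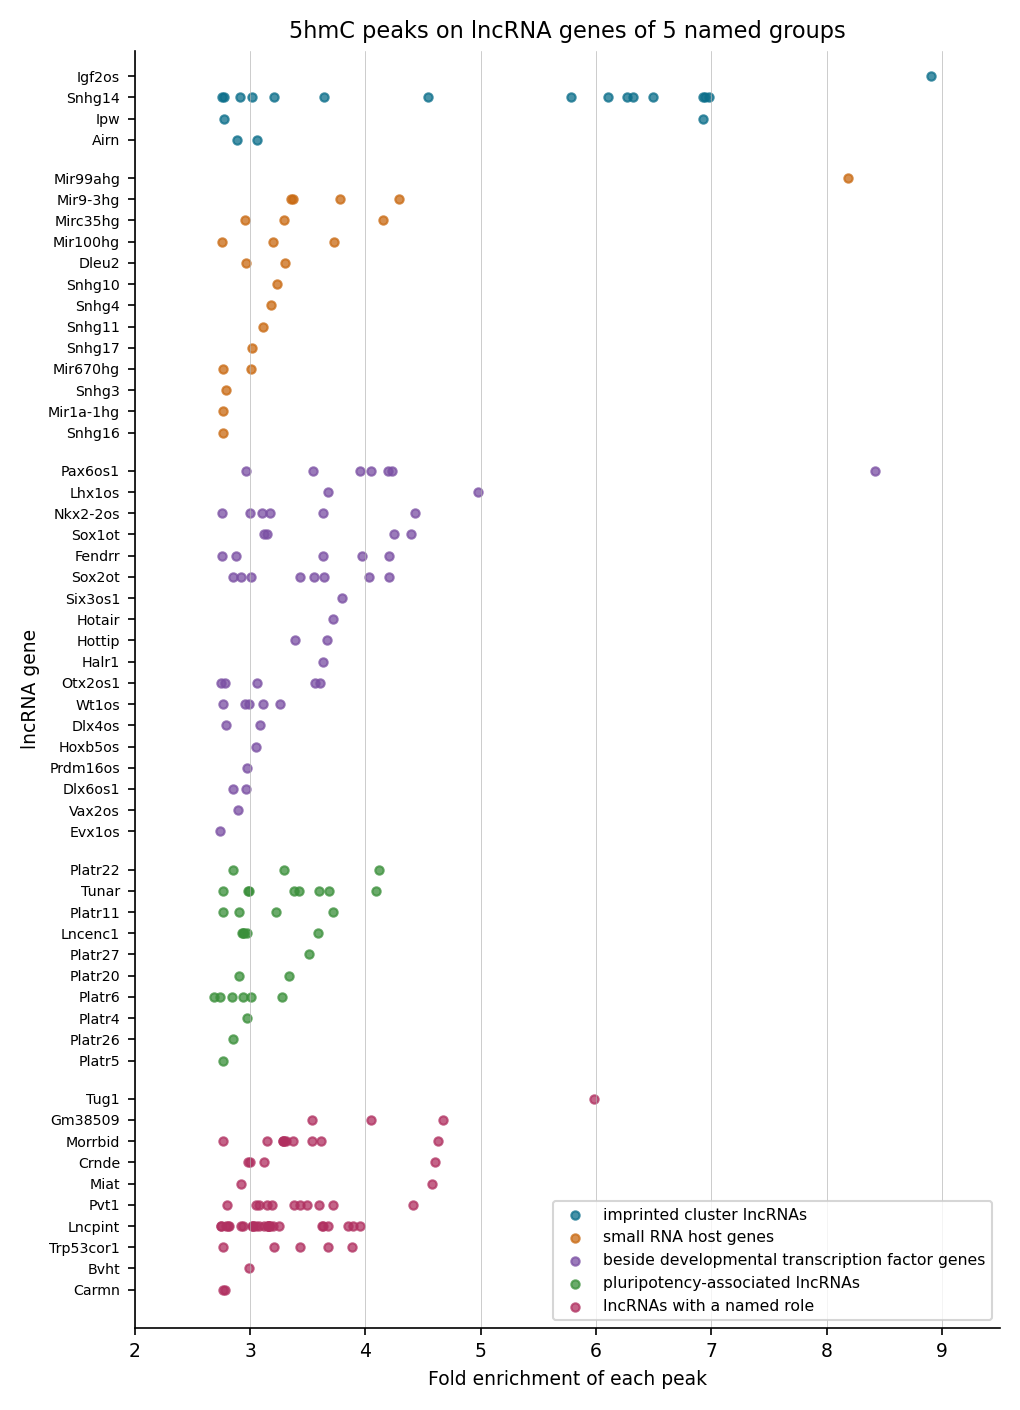
Fold enrichment of each peak (points) on lncRNA genes of 5 named groups, 1 line per gene that holds a peak, ordered within a group by highest fold. Snhg14 is drawn with the imprinted cluster genes only, although it also hosts small RNAs; its points spread from 2.76 to 6.98, while the pluripotency group stays at or below 4.12 and Igf2os, Pax6os1 and Mir99ahg stand alone above 8.

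The 10 highest folds lay mostly on genes with Gm symbols, which make up 9868 of the 12318 lncRNA genes. Gm40504 had 11.9, Gm46490 11.5, Gm30275 11, Mup-ps15 10.7 and Gm27243 10.6. Gm46246, Gm4876, Gm30364, Gm41754 and Gm33251 followed, from 10.5 to 10.0, and all 10 peaks were 516 to 1246 bp wide. The peak of Gm46490 covered its own start window, in the family named after it above. The peak with the highest −log10 q of all, 2273, lay on Gm33838 and was only 359 bp wide with a fold of 3.5. That fold was near the median of 3.29 over all peaks on lncRNA genes. The high −log10 q of this peak thus did not go with a high enrichment, and the reason was not tested. That on AY036118 had 249.5 at a fold of 7.13. Next came Gm36876 with 78.5 at a fold of 4.78 and Gm40504 with 32.6. Gm33838, AY036118 and Gm36876 were picked after their values had been seen.

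The widest peaks covered very different shares of their genes. That on A630034I12Rik was 9.17 kb wide, followed by Gm33102 at 8.38, Gm42081 at 7.70, Gm5087 at 7.30, Gm2539 at 7.02 and Gm4316 at 6.91 kb. Gm40904, Gm35822, Gm29230 and Gm33103 had peaks of 6.87, 6.87, 6.82 and 6.76 kb. Their folds ran from 4.74 on Gm5087 to 7.94 on Gm40904. Gm40904, Gm4316 and Gm42081 lay nearly or wholly under these peaks, and A630034I12Rik was 58.3% under its own. The other 6 peaks covered 0.961% of Gm33103 to 27.6% of Gm2539. Among genes of 2 kb or more, 65 had over 50% of their span covered. Gm40904, Gm4316, Gm42031, Gm41392, Gm34017, Gm39782 and Gm32723 lay wholly under a single peak, which reached at least part of the start window. Gm42081 was 99.8% covered. Gm39065 and Gm41499 followed with 86.9% and 79.97%. Gm34017 lies 46.2 kb from the imprinted gene Dlk1, with a fold of 3.17.

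The genes with most peaks were long. Next to Lncpint, A930011G23Rik had 26 peaks in 431.8 kb, 2610035D17Rik 23, Gm31615 19, Gm38475 18 and Gm32611 16. Banf2os, 2610307P16Rik and Snhg14 had 15 each and Gm36684 14. Median folds in these genes lay between 3.02 and 3.23, except 4.39 in Gm36684 and 5.78 in Snhg14.

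Groups by the form of the symbol differed little in how often they held a peak. LncRNA genes with Gm symbols, clear of protein-coding spans, held one in 43.7% of 6403 cases (42.5 to 45.0). RIKEN clones whose number marks a testis library held one in 40.7% of 594 cases (36.8 to 44.8), against 48.8% of 506 other RIKEN clones (44.4 to 53.3). Their peaks reached −log10 q of 5 in 14.3% (11.4 to 17.6) for testis clones and 8.46% (6.56 to 10.7) for other clones. Chromosomes ranged from 31.8 peaks per Mb of lncRNA-only sequence on chromosome 14 (28.2 to 35.7) to 65.5 on chromosome 17 (58.8 to 72.8). Along lncRNA genes of 10 kb or more the peaks were nearly even, with 11.2% of midpoints in the first 10% of the span and 9.91% in the last 10%. In protein-coding genes 9.10% lay in the first stretch and 12.6% in the last.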

How the data were processed

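5hmC was profiled in WT prospermatogonia in 1 captured library and 1 library before capture, and the analysis used the peak list of the captured library. Per the submitters' processing notes, the tools were bedtools 2.27.1, Bowtie2 2.5.0, deepTools 3.5.1, MACS2 2.1.0, SAMtools 1.16.1 and Trim Galore, with build mm10. Caller settings, control use and the handling of multiply mapped reads were not given in the sources used here. Each broad peak in the authors' deposited list has a score, a fold enrichment (a ratio) and a −log10 p and −log10 q. Weak calls are included, down to a −log10 q of 1.01. It has no counts, so depth and the error of a fold are unknown.

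Peaks were intersected with 49603 RefSeq genes of GRCm38.p6, and 340 genes in the opening 3 Mb of chromosomes other than Y were left out. Overlap was at least 1 bp. The table of genes has no exons. Strand was taken only for the 5979 lncRNA genes that overlap no protein-coding span and have a start in the RefSeq sequence table. Families of alike starts came from BLAST+ 2.17.0 and single linkage. Python 3.11.15, pandas 2.3.3, numpy 2.4.6, SciPy 1.17.1 and matplotlib 3.10.9 were used, and the interval and family steps were tested on simulated data. The members, lists and comparisons were chosen with earlier results of these data known. Named genes are the members of 5 lists with a peak, and the 10 highest by fold, width, number of peaks and share covered. Of the list symbols, 3 imprinted, 1 pluripotency and 1 named-role symbol were not matched, and 8 matched genes of other types or on X were not counted. Alternatives were stricter q, other overlaps, distance to protein-coding genes, merging, X and Y, and other symbols.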

Additional observations from a re-analysis of the deposited data

How the results depend on the processing

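The threshold of the list had the widest effect. At a −log10 q of 3 or more there were 1662 peaks on lncRNA genes with a median fold of 5.28 and width of 788.5 bp, 13.2% of genes held one and density was 8.91 per Mb. At 5 or more these were 910 peaks, 6.17, 918 bp, 7.65% and 4.79 per Mb, and 7.14% of start windows in families of 5 or more were touched. The midpoint inside the gene and at least 50% of the peak inside it each gave a median width of 595 bp, with 40.5% and 40.4% of genes. More than 10 kb from protein-coding genes, 13.3% of peaks had −log10 q of 5 or more. Without Gm and LOC symbols there were 1675 peaks, 10.6% of them that strong, and 38.8 per Mb. The other 32 values moved by less than their interval, or for counts by less than 1.5 times, including those with X and Y, with merged peaks, and with families joined at 85% identity or 150 bases. The family alternatives were chosen after seeing the data. No library could be left out, since there is 1. No paired analysis was possible because 1 library has a file and no result comes from a test between samples.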
